A study of Mus musculus with 8 samples.

Results

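Red blood cell genes were followed here in RNA from the olfactory mucosa of mice: the adult alpha-globin genes Hba-a1 and Hba-a2, the adult beta-globin genes Hbb-bs and Hbb-bt, Alas2 and Slc4a1. The members were chosen by symbol, and all 6 were found among the 54982 genes of the table. Mucosa was taken at postnatal day 30 from 4 control samples and 4 samples in which the enhancers TE1 and TE2 of the trace amine receptor cluster were deleted. All were labelled male and on a mixed 129S6;C57BL/6J background. The labels do not say whether each sample was a separate animal, so p-values measure the spread between these samples, which may in part be technical. They also give no perfusion or other removal of blood.

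Haemoglobin is a tetramer of a pair of alpha chains and a pair of beta chains, each holding a haem. The mRNAs are made in erythroid cells of the bone marrow and carried into the blood by reticulocytes, the youngest circulating red cells, which then lose them. Alas2 is the erythroid form of the enzyme that starts haem synthesis. Slc4a1 encodes band 3, the anion exchanger that is the main integral protein of the red cell membrane. In dissected tissue such RNAs can come with blood in vessels and with any marrow of the adjoining bone. In bulk RNA, fewer cells of a type and less RNA per cell cannot be told apart.

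The alpha genes lie on chromosome 11, Hba-a1 from 32283511 to 32284465 and Hba-a2 from 32296489 to 32297298, both on the plus strand (GRCm38). The beta genes lie on chromosome 7, Hbb-bt from 103812524 to 103813996 and Hbb-bs from 103826534 to 103828096, both on the minus strand, inside the class I odorant receptor region. Alas2 is on the X chromosome (150547375 to 150570638, plus strand) and Slc4a1 on chromosome 11 (102348824 to 102366203, minus strand). The main transcript of each globin gene has 3 exons, that of Alas2 11 and that of Slc4a1 20. Hbb-bs and Hbb-bt are the beta-globin genes of the haplotype that C57BL/6J carries, whereas 129 strains carry other alleles, so reads from a 129 allele could only be counted under these names. The labels give no haplotype, and its part in the values was not tested.

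The 150 bases before the transcription start are shown for the 5 members with an entry in the RefSeq promoter table (build GRCm38.p6), since these genes varied together across the libraries. They are written 5′ to 3′ on the gene's own strand, at chr11:32283522-32283671 and chr11:32296342-32296491 (plus strand), chr7:103827929-103828078 and chr7:103813924-103814073 (minus strand) and chrX:150547267-150547416 (plus strand). Capitals mark 4 short motifs searched on both strands: the CCAAT box, the CACCC box, the TATA-type box ATATAA and the GATA motif GATAA. Where motifs touch or overlap, the capitals run on. The starts are those of RefSeq, which lie inside the GENCODE gene bounds given above, so each stretch overlaps those bounds, wholly for Hba-a1 and Hbb-bs and in part for the others.
Hba-a1: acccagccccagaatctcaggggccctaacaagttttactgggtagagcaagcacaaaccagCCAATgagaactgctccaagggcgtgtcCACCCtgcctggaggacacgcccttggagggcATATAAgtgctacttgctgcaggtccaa
Hba-a2: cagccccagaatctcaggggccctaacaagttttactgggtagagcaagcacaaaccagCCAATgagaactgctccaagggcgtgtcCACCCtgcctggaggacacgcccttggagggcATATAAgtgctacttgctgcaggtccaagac
Hbb-bs: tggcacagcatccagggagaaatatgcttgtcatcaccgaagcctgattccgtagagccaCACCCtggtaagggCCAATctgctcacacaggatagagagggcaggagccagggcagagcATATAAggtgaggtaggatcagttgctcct
Hbb-bt: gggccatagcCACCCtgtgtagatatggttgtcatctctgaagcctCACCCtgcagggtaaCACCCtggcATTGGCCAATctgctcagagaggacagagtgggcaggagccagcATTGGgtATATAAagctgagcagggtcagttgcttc
Alas2: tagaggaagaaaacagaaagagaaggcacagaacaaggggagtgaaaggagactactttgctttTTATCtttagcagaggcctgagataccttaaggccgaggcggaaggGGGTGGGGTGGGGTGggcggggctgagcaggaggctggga

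All 4 globin promoters held ATATAA at 28 to 31 bases before the start, CCAAT at 75 to 91 bases and CACCC at 60 to 90 bases. Hbb-bt held further matches, with CACCC also at 104 and 140 bases and CCAAT on the opposite strand at 36 and 80. Alas2 had GATAA on the opposite strand at 86 bases and CACCC on the opposite strand at 30, 35 and 40, end to end, and neither CCAAT nor ATATAA. In the globin promoters GATAA fell farther out, at 182 to 209 bases. Among the last 150 bases of all 32851 promoters of the table, 5.35% held ATATAA, 24.5% held CCAAT, 37.4% held CACCC and 13.3% held GATAA, and 25.4% of the whole windows of 300 bases held GATAA. A match describes letters only, and the motifs were chosen with these sequences in view.

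The coding parts of each globin pair are close to identical. The coding sequences of Hba-a1 and Hba-a2 differed at 1 of 429 bases, and their transcripts shared an unbroken run of 415 bases. Those of Hbb-bs and Hbb-bt differed at 1 of 444 bases and shared a run of 430 bases. Alpha and beta coding sequences were 57.8% identical (Hba-a1 against Hbb-bs), with no shared run longer than 14 bases. Over whole annotated transcripts, which differ in length and in their untranslated ends, identity was 75.1% for the alpha pair and 82.4% for the beta pair. Reads inside the shared runs can therefore not be assigned to 1 gene of a pair with certainty. How they are split within a pair does not change the alpha and beta sums. If reads matching both genes were left out of the counts, the sums too would be lowered.

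Libraries held 31655524 to 50748777 reads assigned to genes. The values below, called scaled reads, are a gene's reads over the size factor that the authors gave the library. Omp, the marker of mature olfactory neurons, stood at 135973 to 194812 scaled reads in the 8 libraries. Deletion replicate 3 went against its male label: Xist was at 15300 scaled reads there and at 4.86 to 86.9 in the others, and Ddx3y was at 5.69 against 2716 to 3087. The members' fold changes and ratios were also computed without it, the gene lists, neighbours and correlations were not. Libraries also differed in how many genes had no read. Control replicate 3 had 9836 such genes, deletion replicate 4 14017, control replicates 2 and 4 16594 and 17664, and the remaining 4 libraries 22166 to 23740.

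The adult globins were a small part of the counted reads. Together the 4 genes held 1055, 2492, 1102 and 2687 reads across control replicates 1 to 4, which was 20.8, 61.7, 34.8 and 66.3 CPM (reads scaled to a common library total). Across deletion replicates 1 to 4 they held 949, 1370, 1433 and 1495 reads, or 25.4, 37.7, 32.5 and 34.3 CPM. Control replicates 2 and 4 were thus the highest libraries, control replicate 1 was the lowest, and control replicate 3 lay among the deletion libraries. The means were 45.9 ± 21.7 CPM in the controls and 32.4 ± 5.19 in the deletion samples (SD, n = 4 each), and the groups overlapped.

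**Figure D1:**
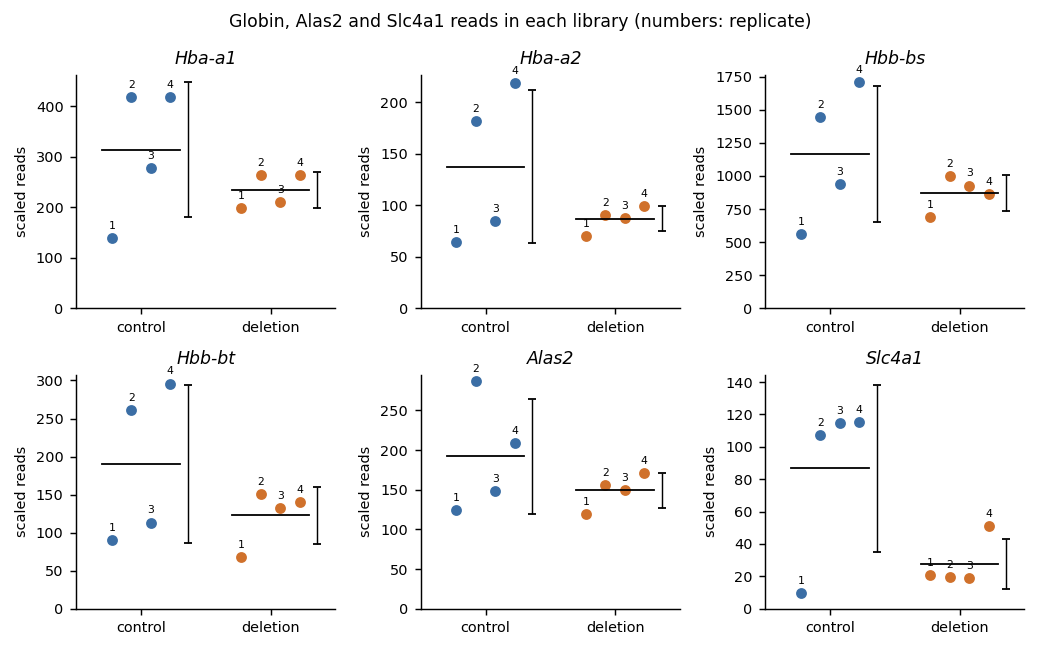
Scaled reads of the 6 erythroid genes in each library, with the replicate number beside each point, the group mean as a line and the SD as a bar. Control replicates 2 and 4 lie above every deletion library in all 6 genes, while control replicate 1 is the lowest control in all 6.

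Of the beta genes, Hbb-bs was the most abundant member. It was at 560, 1443, 943 and 1708 scaled reads across control replicates 1 to 4 and at 691, 1003, 928 and 862 across deletion replicates 1 to 4. The deletion libraries lay between the low control replicate 1 and the high replicates 2 and 4. Its log2 fold change, deletion minus control on the log2(scaled reads + 1) scale, was -0.31 ± 0.33 (SE; 95% interval -1.06 to 0.45; limma, Benjamini-Hochberg adjusted p = 0.874). Hbb-bt was at 90.7, 261, 113 and 296 in the controls and at 68.2, 151, 132 and 140 in the deletion samples. Deletion replicate 1 was the lowest library for Hbb-bt, and the groups again overlapped. Its log2 fold change was -0.51 ± 0.41 (limma adjusted p = 0.869).

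The alpha genes, too, were lowest in control replicate 1 and highest in control replicates 2 and 4, with the other libraries in varying order. Hba-a1 was at 139, 418, 278 and 419 scaled reads in the controls and 198, 264, 210 and 264 in the deletion samples, with a log2 fold change of -0.30 ± 0.32 (limma adjusted p = 0.873). Hba-a2 was at 64.8, 182, 85.0 and 219 in the controls and 70.4, 90.3, 88.2 and 99.5 in the deletion samples, with a log2 fold change of -0.49 ± 0.35 (limma adjusted p = 0.869). For both genes control replicate 1 was below every deletion library, and control replicates 2 and 4 were above every one.

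Alas2 was at 125, 287, 148 and 209 scaled reads in the controls and at 119, 156, 150 and 172 in the deletion samples. Its highest library was control replicate 2, and control replicate 3 lay within the deletion range. The log2 fold change was -0.30 ± 0.24 (95% interval -0.82 to 0.22; limma adjusted p = 0.869).

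Slc4a1 differed most between libraries, 11.8-fold from the lowest to the highest, against 2.41-fold to 4.34-fold for the other members. It was at 9.72, 107, 115 and 115 scaled reads across control replicates 1 to 4 and at 20.6, 19.8, 19.0 and 51.1 across deletion replicates 1 to 4. The libraries fell at 3 levels: control replicates 2 to 4 were high, deletion replicate 4 was between, and control replicate 1 lay with, and below, deletion replicates 1 to 3. The log2 fold change was -1.26 ± 0.77 (95% interval -3.02 to 0.50; limma adjusted p = 0.869). Without control replicate 1 it was -2.11 (adjusted p = 0.158), and without deletion replicate 4 it was -1.60 (adjusted p = 0.847).

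None of the 6 members was called between deletion and control. The call rule, a limma adjusted p under 0.05, was passed by 16 of 21974 tested genes (0.0728%). At an unadjusted p under 0.05 there were 0 members by limma, against 3.5% of all tested genes. EdgeR's quasi-likelihood test and DESeq2 also called 0 of 6, with 1 member each at an unadjusted p under 0.05, Slc4a1 in both, against 4.15% of all tested genes by edgeR and 4.54% by DESeq2. The groups did not overlap for 0 of 6 members and for 2.2% of all tested genes. All 6 estimates were below 0, as were 45.6% of all tested genes, and their median was -0.40 against 0.02 over all tested genes. The members share their libraries and vary together, so these 6 signs are not 6 separate observations.

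The estimates depended on single control libraries. Without control replicate 1 the log2 fold changes were -0.65 for Hba-a1, -0.79 for Hba-a2, -0.62 for Hbb-bs, -0.81 for Hbb-bt and -0.48 for Alas2. At an unadjusted p under 0.05 there were then 4 of 6 members, against 10.8% of all tested genes, and none was called (limma adjusted p from 0.158 to 0.451). Leaving out control replicate 4 brought the 5 values to -0.12, -0.21, -0.08, -0.24 and -0.24 in the same order, and leaving out control replicate 2 to -0.12, -0.30, -0.16, -0.30 and -0.09. Without deletion replicate 3, whose sex-linked genes did not match its label, they were -0.26, -0.50, -0.34, -0.57 and -0.31, and that of Slc4a1 was -1.13.

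**Figure D2:**
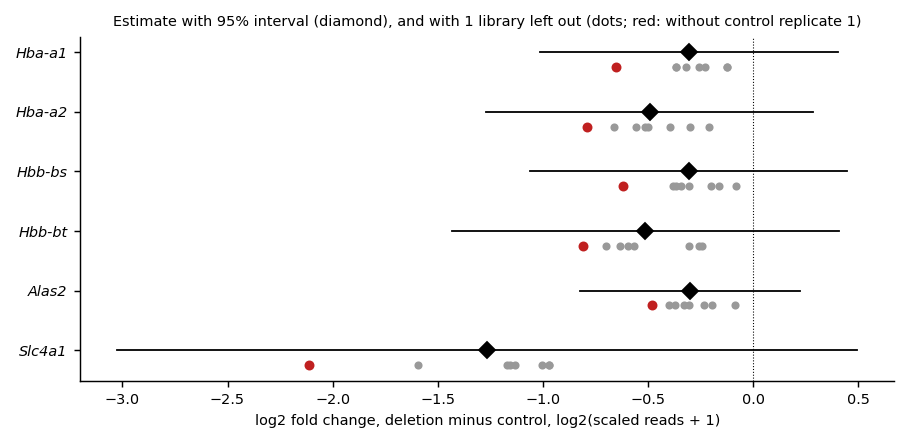
Log2 fold change of each member (x axis, deletion minus control) with its 95% interval, and below it the values with 1 library left out. The interval of every member includes 0, and leaving out control replicate 1 gives the lowest value for each, down to -2.11 for Slc4a1.

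In the authors' deposited table, where a positive log2 fold change means higher in control, the 6 values ran from 0.12 for Hbb-bs to 0.22 for Slc4a1. Their sizes cannot be set against the estimates above. DESeq2 on the recovered reads gave -1.67 for Slc4a1, deletion minus control, and the reason for the smaller deposited value was not tested. Slc4a1 had the smallest p-value of the 6 in the authors' deposited table, 0.00763, and all 6 had an adjusted p of 0.923 there.

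Levels between genes were compared per kilobase of annotated exon, as means over the 8 libraries. Hbb-bs stood at 1324 scaled reads per kb (729 to 2224), Hba-a1 at 337 (172 to 516), Hbb-bt at 222 (97.1 to 421) and Hba-a2 at 169 (97.1 to 329). Alas2 stood at 71.0 (49.6 to 119) and Slc4a1 at 11.7 (1.99 to 23.5). Hbb-bs lay above Hba-a1, and Alas2 above Slc4a1, with no overlap of their ranges. The ranges of Hba-a1, Hbb-bt and Hba-a2 overlapped, although Hba-a1 was above Hbb-bt in 8 of 8 libraries and Hbb-bt above Hba-a2 in 7 of 8. Alas1, the form of the enzyme used outside the erythroid line, stood at 1728 scaled reads per kb.

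Ratios within a library do not depend on its scaling. Hbb-bt took 13.9%, 15.3%, 10.7% and 14.8% of beta-globin reads across control replicates 1 to 4 and 8.99%, 13.1%, 12.4% and 13.9% across deletion replicates 1 to 4. The lowest share, in deletion replicate 1, had a 95% Wilson interval of 7.09% to 11.3%, and the highest, in control replicate 2, one of 13.7% to 17.0%, so these libraries differed by more than counting error. Intervals cover counting error only. The group means, 13.7% ± 2.05 and 12.1% ± 2.17 (SD, n = 4), differed by less than the SD of either group (exact permutation test, two-sided, p = 0.371; 0.619 adjusted over 5 ratios).

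Hba-a2 took 31.7%, 30.4%, 23.4% and 34.4% of alpha-globin reads in the controls and 26.2%, 25.5%, 29.5% and 27.4% in the deletion samples. Control replicate 3 was the lowest and control replicate 4 the highest, with 95% Wilson intervals of 18.8% to 28.7% and 30.8% to 38.1% (exact permutation p between groups = 0.286; 0.619 adjusted). The alpha genes together took 22.0% to 26.6% of adult globin reads, the narrowest range of the ratios, and the means were 24.9% ± 1.06 in the controls and 24.6% ± 2.20 in the deletion samples (exact permutation p = 0.829; 0.943 adjusted). The sign of that difference turned without control replicate 2 or deletion replicate 3.

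Alas2 varied less against the globins than Slc4a1 did. There were 146, 124, 104 and 79.3 Alas2 reads per 1000 adult globin reads across control replicates 1 to 4 and 116, 104, 110 and 126 across deletion replicates 1 to 4 (exact permutation p = 0.943; 0.943 adjusted), and its sign turned in 5 of the alternatives. Within the controls the highest ratio, in replicate 1, and the lowest, in replicate 4, were those of the libraries with the fewest and the most globin reads for that group. Slc4a1 had 11.4, 46.5, 80.8 and 43.5 reads per 1000 adult globin reads in the controls and 20.0, 13.1, 14.0 and 37.5 in the deletion samples. Control replicate 3, with few globin reads, had the highest value, and control replicate 1 the lowest. The group difference of -24.4 was smaller than the control SD of 28.4 (exact permutation p = 0.171; 0.619 adjusted).

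**Figure D3:**
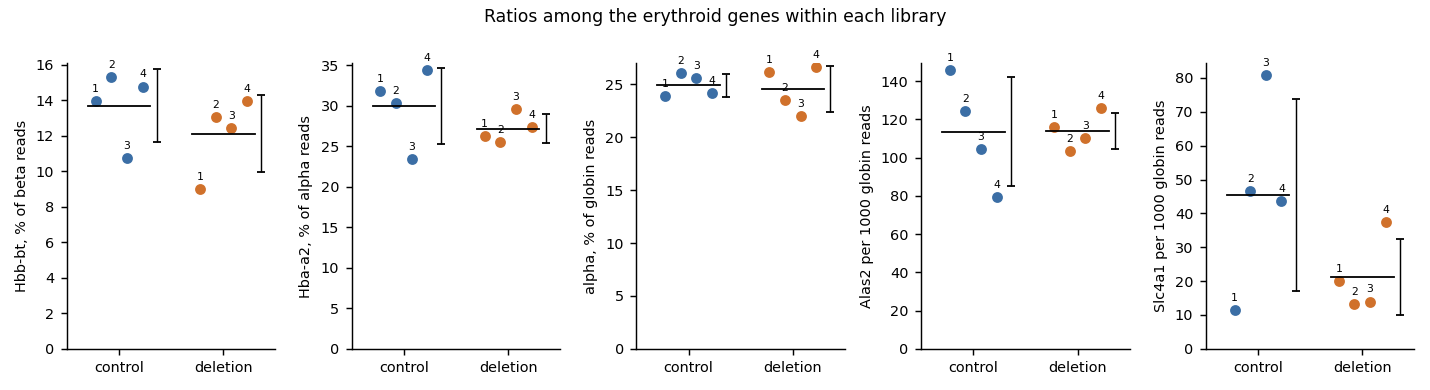
Ratios within each library (y axes: percent of reads, or reads per 1000 adult globin reads), with replicate numbers, group means as lines and SD as bars. The alpha share stays between 22.0% and 26.6%, whereas Slc4a1 per 1000 globin reads runs from 11.4 to 80.8.

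The 4 globins and Alas2 varied together from library to library. Over the 8 libraries the 10 pairs among these 5 genes had Pearson r from 0.857 to 0.958 and Spearman rho from 0.786 to 0.952 on log2 scaled reads. Exact permutation p-values, adjusted over the 15 pairs computed, were at most 0.011 for r and 0.038 for rho. Without the 2 libraries farthest from the median of the first gene, r was 0.854 to 0.966. Pairs of near-identical genes can share reads, and all pairs share the library's size factor. With levels centred within each group, the number of the 15 pairs with an adjusted p under 0.05 for r went from 14 to 12. For Slc4a1 the libraries fell into separate sets, so no pooled r is given.

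Other genes of erythroid cells were read from lists of known members. Of 13 tested genes of the red cell membrane and its skeleton 0 were called, 8 were below 0 and the median log2 fold change was -0.32. The most abundant of them, Add2, Dmtn and Epb41, are also used in neurons or many other cells and stood at log2 fold changes of 0.08, 0.01 and 0.01. The genes with few reads were less even. Epb42, which anchors band 3 to the skeleton, was at 6.48, 24.0, 25.8 and 22.6 scaled reads across control replicates 1 to 4 and 4.33, 7.71, 8.53 and 16.4 across deletion replicates 1 to 4, an order close to that of Slc4a1. Kel, the Kell blood group protein, was at 3.24, 11.1, 45.1 and 10.8 in the controls and 1.08, 1.10, 1.90 and 10.05 in the deletion samples. It was the 1 gene of the list with an unadjusted limma p under 0.05, against 3.5% of all tested genes (limma adjusted p = 0.869).

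Genes of the neutrophil line were mixed. Ltf (lactoferrin), the most abundant of its list and also made by glands, was at 15037, 19045, 11597 and 14338 scaled reads across control replicates 1 to 4 and 18614, 16301, 32390 and 12991 across deletion replicates 1 to 4, highest in deletion replicate 3. Its log2 fold change was 0.36 (limma adjusted p = 0.869). Ngp and Camp encode granule proteins of maturing neutrophils, and Mpo encodes myeloperoxidase of their precursors. Ngp was at 8.91, 30.5, 86.3 and 80.6 scaled reads across control replicates 1 to 4 and at 6.498, 5.51, 22.7 and 27.4 across deletion replicates 1 to 4. Camp was at 4.86, 17.6, 29.6 and 37.4 in the controls and 4.33, 5.51, 7.58 and 8.22 in the deletion samples. Mpo was at 2.43, 14.8, 47.7 and 15.7 in the controls and 5.42, 1.10, 5.69 and 10.05 in the deletion samples. These genes and Epb42, Rhd, Kel, Ermap and Trim10, 8 in all, were picked after their values were seen. All 8 were lowest among controls in replicate 1, and in all 8 control replicates 2 to 4 lay above deletion replicates 1 to 3. S100a8 and S100a9, which circulating neutrophils also carry, were at log2 fold changes of -0.37 and -0.28 and, like Ltf, did not follow that order. Retnlg and Mmp8 of the same list, not among the 8, did follow it, at -0.95 and -0.89 (limma adjusted p = 0.869 for both). Retnlg was the 1 gene of that list with an unadjusted limma p under 0.05, against 3.5% of all tested genes. Of 6 tested neutrophil genes and 2 tested myeloid precursor genes, 0 were called, and Prtn3 was nearly level at -0.05.

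The level of genes that are close to silent moved with part of this. The 22443 genes with a mean above 0 and under 5 scaled reads together held 13200, 35490, 105119 and 24889 scaled reads across control replicates 1 to 4, and 11839, 13280, 15400 and 36938 across deletion replicates 1 to 4. The 4 libraries with the larger sums were also the 4 with the most Slc4a1. The predicted genes Gm26870, Gm10717, Gm10722 and Gm10715 on chromosome 9 were named after their values were seen. They came from a ranking of genes by Pearson r with Slc4a1, so being highest in these 4 libraries follows from the choice. That ranking rests on the separate sets of libraries described for Slc4a1. Gm10717 was at 7.29, 1995, 22400 and 4533 scaled reads in the controls and at 32.5, 149, 38.9 and 6441 in the deletion samples. The part of these reads, and of marrow, in the Slc4a1 result was not tested.

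**Figure D4:**
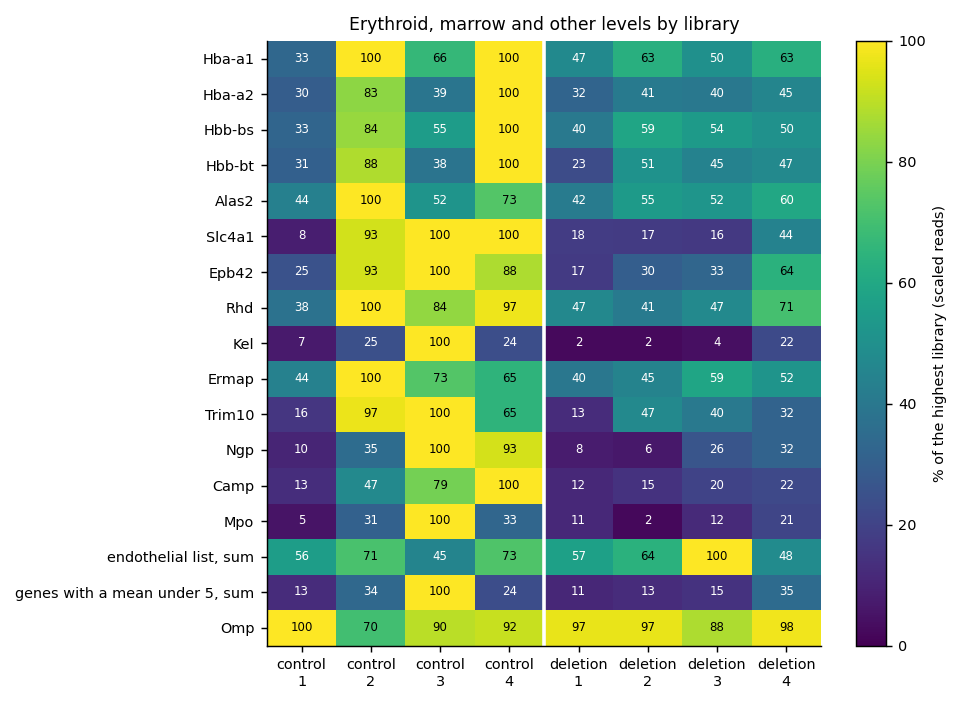
Level of each gene or summed list (rows) in each library (columns), as a percent of its highest library. Slc4a1 and the genes from Epb42 to Mpo are higher in control replicates 2 to 4 than in control replicate 1 and deletion replicates 1 to 3, whereas the globins are highest in control replicates 2 and 4 and the endothelial sum in deletion replicate 3.

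The embryonic and minor globins were near the limit of detection. Hba-x, Hbb-bh1, Hbb-bh2 and Hbb-y, the globins of the embryo, had 5, 3, 19 and 1 reads in all across control replicates 1 to 4 and 7, 2, 9 and 8 across deletion replicates 1 to 4. Control replicate 3, which had the fewest genes without a read, had the most. Of the other globins only Cygb and Mb had enough reads to test. Cygb (cytoglobin, used in fibroblasts) was at 627 ± 58.2 and 645 ± 95.8 scaled reads (control first, SD, n = 4; limma adjusted p = 0.948). Mb (myoglobin of muscle) was at a log2 fold change of 0.12, and Ngb (neuroglobin) averaged 8.89 scaled reads.

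The remaining steps of haem synthesis run in every cell. Their genes, listed together with Alas1, were nearly even apart from Alad. Of 10 tested genes 0 were called, 1 was below 0 and the median log2 fold change was 0.11. Alas1 was at 10046 ± 1408 and 11296 ± 617 scaled reads (limma adjusted p = 0.869), Urod was at a log2 fold change of 0.12 and Alad, the enzyme after the first step, at -0.33. Alad differed 2.41-fold between libraries, from 4600 in control replicate 1 to 1910 in deletion replicate 4. Its highest library was thus the one with the lowest summed adult globins. Tspo2 was listed at 0 in all libraries. Of 10 tested late erythroid genes 0 were called with a median of 0.09. Mkrn1 and Tfrc, among its most abundant members, were at 0.08 and 0.13 and are expressed well beyond erythroid cells. Of 9 tested erythroid regulators 0 were called and 7 were below 0, with a median of -0.18. Bcl11a, Lmo2 and Zfpm1 led by level, at -0.10, 0.15 and -0.11. Klf1, Nfe2 and Gfi1b had far fewer reads and stood at -0.18, -0.47 and -0.52. Epor, the erythropoietin receptor, was the 1 regulator whose groups did not overlap, at 31.4 to 39.9 scaled reads in the controls and 21.7 to 27.4 in the deletion samples (limma adjusted p = 0.869).

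Genes that clear haemoglobin and haem were not called either, 0 of 8 tested, with a median of 0.09. Hmox1, the haem oxygenase, was at 0.18, Blvrb at 0.14 and Slc48a1 at 0.00. Hpx, which binds free haem, was at 13.9 to 20.6 scaled reads in the controls and 4.74 to 11.01 in the deletion samples, with no overlap (limma adjusted p = 0.869). Of this list Hpx was the 1 gene with an unadjusted limma p under 0.05, against 3.5% of all tested genes. Epor and Hpx were named after their values were seen, and 2.2% of all tested genes do not overlap.

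Markers of other blood and vessel cells were set beside the members. The 8 endothelial genes summed to 3139, 4025, 2546 and 4093 scaled reads across control replicates 1 to 4 and to 3199, 3594, 5642 and 2726 across deletion replicates 1 to 4. Within the controls the endothelial sum and the globins were both highest in replicates 2 and 4, but deletion replicate 3 had the highest endothelial sum with 32.5 CPM of globin. Of the 8 endothelial genes 0 were called, with a median of 0.10. Of 3 tested platelet genes 0 were called (median 0.12), and of 5 bone genes 0 were called (median -0.15). The bone genes summed to 65009 to 92371 in the controls and 56672 to 71859 in the deletion samples. Most of that was Col1a1, at 53161 to 87479. The platelet genes summed to 927 to 1073 and 1015 to 1117, nearly all of it Itga2b, at 870 to 1005. Pf4 was at 29.6 to 54.0, and Ppbp at 127 in deletion replicate 3 and 3.25 to 15.5 in the others. These sums therefore mainly follow Col1a1 and Itga2b. The 6 olfactory neuron genes had 0 calls and a median of 0.09. The part of vessels or bone in the globin levels was not tested.

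The beta-globin cluster, from 103812524 to 103853216 on chromosome 7, is flanked by class I odorant receptors. Of the 4 nearest tested receptors on each side, 0 of 8 were called and their log2 fold changes ran from -0.37 to 0.35. Olfr67, 20.7 kb before the cluster, was at 429, 448, 469 and 344 scaled reads in the controls and 286, 311, 596 and 411 in the deletion samples. Olfr66, 26.2 kb after it, was at 80.5 ± 12.1 and 108 ± 47.3 (SD, n = 4). Both were highest in deletion replicate 3, unlike the globins, which were highest in control replicates 2 and 4. Olfr68 had the 1 unadjusted limma p under 0.05 (363 ± 52.9 against 282 ± 51.0, limma adjusted p = 0.869), against 3.5% of all tested genes. Olfr69 and Olfr630 were at 0.16 and 0.14, Olfr64 at -0.23, Olfr65 at 0.00 and Olfr632 at -0.28.

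**Figure D5:**
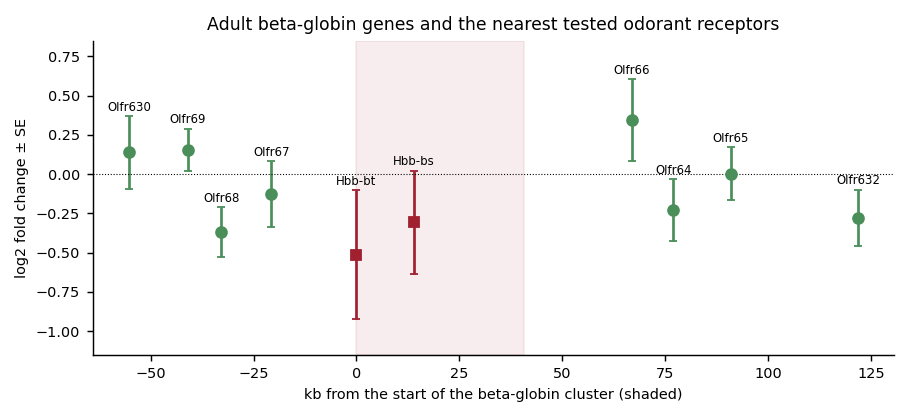
Log2 fold change with SE (y axis) of the adult beta-globin genes (squares) and of the 4 nearest tested odorant receptors on each side (circles), by distance in kb from the start of the cluster. The receptors lie on both sides of 0, from -0.37 for Olfr68 to 0.35 for Olfr66.

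The neighbours of the alpha-globin genes were more even than the globins. Nprl3, whose introns hold the alpha-globin enhancers, was at 977 ± 46.6 scaled reads in the controls and 917 ± 56.7 in the deletion samples (limma adjusted p = 0.869). Mpg, Rhbdf1, Snrnp25 and Sh3pxd2b were at log2 fold changes of -0.08, 0.00, -0.04 and -0.08. Il9r had too few reads to test, with 29.6 scaled reads in control replicate 3 and 0 to 5.69 in the others. Of these 5 tested neighbours 0 were called. Polr3k, listed with them, lies on chromosome 2 in the mouse and was at 0.10, also not called.

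Finally, the genes whose level across the 8 libraries was most like the mean of the 6 members were ranked by Pearson r among 16462 tested genes with a mean of at least 50 scaled reads. The 10 highest included Dnaaf3 (r = 0.947), Ppp1r13l, RP23-392F1.1 (4631405K08Rik in the reference annotation), Runx2, Sfpq, Pcdhga11, Aoc2, Zfr2 and RP23-97D20.2 (Gm13270; r = 0.899). The minimum level left out most genes that are used mainly in erythroid cells, such as Epb42, Rhd, Kel and Epor. Runx2, a bone transcription factor, was at 271, 588, 444 and 512 scaled reads in the controls and 368, 382, 409 and 365 in the deletion samples, lowest in control replicate 1 and highest in control replicates 2 and 4. With 8 libraries and this many genes some high values arise in any ranking, so no p is given.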

How the data were processed

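RNA was measured in olfactory mucosa from 4 control and 4 deletion samples. Per the labels' protocols, ribodepleted libraries were made from total RNA with a strand-keeping kit. The submitters' processing notes name the aligner STAR (version 2.6.0), DESeq2 and the build GRCm38.p6. How reads were counted, with which strand rule, and what became of reads matching several places is not given in the sources used here. This bears on the paired globin genes, on their sums and shares, and on their levels beside other genes.

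The authors' deposited values are a signal: gene counts divided by a size factor. Whole reads were recovered, 100% of non-zero values being whole multiples of the smallest value in their column within 0.001. The authors' deposited comparison has a log2 fold change, p-values and a test score, the last not used. Columns were matched to samples by group and replicate number. The deletion columns carry another abbreviation than the titles, and were matched by number. Genes were placed with GENCODE release M21 (54161 of 54982 rows matched).

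limma 3.58.1 (R 4.3.3) was fitted to log2(scaled reads + 1) over 21974 genes kept by filterByExpr (minimum count 10), with trend and robust moderation and Benjamini-Hochberg adjustment at 0.05. Alternatives were edgeR 4.0.16 and DESeq2 1.42.0 on recovered reads, other scalings, pseudocounts and filters, and single libraries left out. The fit was tested on simulated data. Ratios were compared by exact permutation over 70 splits.

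The named genes are the 6 members, the 3 most abundant genes of each list and any called, the nearest beta-globin receptors, the alpha-globin neighbours, and the 10 most similar genes. Members and lists were chosen with earlier results of these data known. Ahsp is not analysed here, and some genes that the rule names are not reported here.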

Additional observations from a re-analysis of the deposited data

Results flagged for a closer look

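In 15 of 174 groups of 4 libraries checked, 1 library lay so far from the others that its gap to the nearest exceeded the 95% limit of Dixon's test. Chance flags about 1 in 20 groups, and these groups share libraries and genes.

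Among the members, Slc4a1 was flagged in both groups. Control replicate 1 had 9.72 scaled reads and the rest of its group 107 to 115, and the gene stood at 51.1 in deletion replicate 4 against 19.0 to 20.6 in the other deletion samples. The membrane genes Epb42 and Kel were flagged in the same libraries, Epb42 at 6.48 in control replicate 1 (22.6 to 25.8 in the others) and Kel at 10.05 in deletion replicate 4 (1.08 to 1.90).

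Deletion replicate 4 also stood apart in the predicted genes Gm26870 (12390 scaled reads against 92.1 to 482), Gm10717 (6441 against 32.5 to 149), Gm10722 (7608 against 39.0 to 248) and Gm10715 (376 against 0.948 to 6.61). These genes were picked for likeness to Slc4a1, itself flagged in that library, so their flags are not separate from its flag. Il9r, beside the alpha-globin genes, was at 29.6 in control replicate 3, with 0.810 to 5.55 in the rest of that group.

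Deletion replicate 3, whose sex-linked genes did not match its label, was flagged for Vwf (1254 against 522 to 619), S100a8 (341 against 186 to 207), Ppbp (127 against 3.25 to 6.61), Olfr65 (551 against 330 to 363), Mkrn1 (5317 against 6003 to 6119) and Omp (170846 against 188291 to 190375).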

How the results depend on the processing

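The log2 fold changes of the 6 members stayed below 0 in all 114 combinations of member and alternative (19 alternatives each), and none was called; the lowest adjusted p was 0.158. They ran, with 1 library left out, from -0.65 to -0.12 for Hba-a1, -0.79 to -0.21 for Hba-a2, -0.62 to -0.08 for Hbb-bs, -0.81 to -0.24 for Hbb-bt, -0.48 to -0.09 for Alas2 and -2.11 to -0.97 for Slc4a1. The count of called genes, 16, became 10 when genes had to average 50 reads and ran from 13 to 28 with 1 library left out, the 28 without deletion replicate 4; DESeq2 called 23.

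The difference in Alas2 reads per 1000 globin reads, 0.394, turned to -1.29 with medians, and ran from -11.0 to 11.2 with 1 library left out. That in the alpha share, -0.36 percentage points, ran from -1.05 to 0.501. Both are within the spread between replicates, and the cause was not tested. The difference in summed globin, -13.5 CPM, was -21.8 if control replicate 1 was left out and -6.64 if control replicate 4 was.

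Whether replicate numbers pair the libraries cannot be told from these values. Same-numbered libraries had deviations correlated at 0.325, 0.0878, -0.168 and 0.0533. Control replicate 1 went best with deletion replicate 1, but control replicate 3 went best with deletion replicate 4 (0.393). The latter are the libraries with the fewest genes without a read, 9836 and 14017, which may bear on their correlation and was not tested. With the replicate block 14 genes were called, 0 of them members. Single globin genes rest on 63 to 1737 reads a library, and Slc4a1 on 12 to 117. For Hbb-bs, the deepest, the control SD was 512 on a mean of 1163 scaled reads, so depth alone does not set the precision.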
